A study of Mus musculus with 18 samples.

Results

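The replication-dependent histone genes of the mouse are described here across 18 RNA-seq libraries of primary mouse embryonic fibroblasts (MEFs). They were taken as every row whose symbol follows the clustered-histone pattern, in its older form (Hist1h to Hist4h followed by the histone type) or in the newer form. Symbols marked as pseudogenes (-ps) were left out. The rule used names only and no expression value. It found 67 genes among 51912 rows: 6 of the linker histone H1 family, 20 of H2A, 16 of H2B, 12 of H3 and 13 of H4. Of the 67, 54 lay on chromosome 13, 10 on chromosome 3, 2 on chromosome 11 and 1 on chromosome 6. The filter on low counts was passed by 63. Hist1h2aj and Hist1h2al, which did not pass it, are annotated as pseudogenes but bear no such mark in their symbols, so the rule kept them.

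Replication-dependent histones supply the protein that packages newly made DNA. H2A, H2B, H3 and H4 form the nucleosome core and H1 binds the DNA between cores. Transcription of these genes is driven through NPAT at histone locus bodies, and their messenger RNAs (mRNAs) accumulate in S phase and are lost when replication stops. Unlike other animal mRNAs, they usually end in a conserved stem-loop in place of a poly(A) tail. The stem-loop is bound by SLBP, and the U7 small nuclear ribonucleoprotein directs cleavage just after it.

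Pole4 encodes a small subunit of DNA polymerase epsilon, and Trp53 encodes the p53 transcription factor. The MEFs came from bodies of mid-gestation embryos, with head, heart and liver taken off, on a C57BL/6 background, from matings of mice heterozygous for both null alleles. They were studied at passage 1 in 5% oxygen and medium with 15% serum. The 6 genotypes were Pole4+/+ with Trp53+/+, Trp53+/- or Trp53-/-, and Pole4-/- with the same 3 Trp53 states, with 3 libraries each and no drug treatment. Both alleles were constitutive, so every cell of an embryo carried them, and MEFs are a mixed culture rather than a clone. No source used here says that the libraries of a genotype came from separate embryos or cultures, so every p-value below measures only the spread between these libraries, which may be technical in part.

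Library totals ran from 9535971 to 35319918 counts, and the 67 genes took 0.0958% to 0.668% of them. Levels are given as CPM, counts relative to library size scaled by the trimmed mean of M values (TMM). Trp53 was at 86.6 to 96.1 CPM in Pole4+/+ Trp53+/+ libraries, 64.2 to 72.7 in Pole4-/- Trp53+/+, 48.4 to 59.6 in the 6 Trp53+/- libraries and 8.65 to 12.1 in the 6 Trp53-/- libraries. Pole4 was at 9.26 to 12 CPM in the 9 Pole4-/- libraries and 14.2 to 26.4 in the 9 Pole4+/+ libraries, so reads still fell on the gene in the null. The fibroblast markers summed to 9931 to 20484 CPM in every library, while markers of macrophages (4.78 to 52.1), endothelium (1.80 to 6.17), epithelium (2.06 to 20.3) and erythroid cells (0 to 2.18) were low. Skeletal muscle markers summed to 44.6 to 203 CPM and neuronal markers to 66.5 to 146. Ribosomal RNA genes took 0.968% to 42.5% of the counts, with medians of 24.1% in Pole4-/- Trp53+/+ and 24.8% in Pole4-/- Trp53-/- against 2.32% to 9.30% in the other 4 genotypes. Xist, which female cells express, was at 375 to 880 CPM in 11 libraries and at 2.97 CPM or less in the other 7, and these were spread unevenly over the genotypes. High and low libraries occurred together in each of the 3 Pole4-/- genotypes, so the libraries of such a genotype did not all come from the same embryo.

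The stem-loop described above was searched for after the stop codon of each gene in the GENCODE M21 transcripts (GRCm38), on the sense strand. The 16-base pattern searched for reads GG, 2 free bases, CTTTT, 1 free base, AG, 1 free base and GCC. It was present in 40 of the 67 genes, starting 21 to 58 bases after the stop codon with a median of 31.5, and in 4 of 22462 other coding genes (0.0178%). Those 4 were histone genes as well: H2afx, the H2A variant that is phosphorylated at DNA breaks, H2bfm, and Hist1h2bh and Hist1h2bm, whose names follow the pattern but whose annotated identifiers matched no row of the count table, so that they are not among the 67 and were not analysed here. For the other 27 genes no match says only that these letters are not in the annotated transcript, since many of these models end at the stop codon. Among them, the pseudogenes Hist1h2aj and Hist1h2al have no annotated stop codon and could not be searched. The match occurred in 5 forms, held by 24, 7, 6, 2 and 1 genes, and 1 example of each is printed with the match in capitals and 5 flanking bases on either side. They are shown because this element sets these mRNAs apart from other mRNAs.
Hist1h2ac: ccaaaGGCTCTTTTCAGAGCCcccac
Hist1h4d: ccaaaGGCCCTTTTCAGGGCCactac
Hist1h2bk: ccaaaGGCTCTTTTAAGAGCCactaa
Hist1h4i: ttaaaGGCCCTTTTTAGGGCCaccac
Hist2h2ac: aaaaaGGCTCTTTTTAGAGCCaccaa
The capitals lie at chr13:23683477-23683492 (minus strand) for Hist1h2ac, chr13:23581950-23581965 (plus) for Hist1h4d, chr13:22036300-22036315 (plus) for Hist1h2bk, chr13:22040966-22040981 (minus) for Hist1h4i and chr3:96220418-96220433 (minus) for Hist2h2ac.

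Histone genes of a family are close copies of each other, and this bears on every single-gene value. Of the 67 genes, 29 shared more than 50% of their 100-base windows exactly with another transcript and 6 shared none. Accordingly 87.6% of the histone values in the table were not whole numbers, against 6.14% over all genes, because reads that matched several copies were divided among them by estimate. The split between near-identical copies is therefore uncertain, whereas the sum over a family is affected less. In these bulk cultures fewer cells in S phase and less histone mRNA per cell cannot be told apart.

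The summed level of the 67 genes was lowest in Pole4-/- Trp53+/+ MEFs. It was 1611, 1407 and 1452 CPM in the 3 libraries of that genotype (mean 1490 ± 107, SD, n = 3). In Pole4+/+ Trp53+/+ MEFs it was 3034, 3727 and 2202 CPM (2988 ± 764), and in Pole4-/- Trp53+/- MEFs 2392, 3810 and 2446 CPM (2883 ± 804). These genotypes overlapped each other and both lay above Pole4-/- Trp53+/+. Pole4+/+ Trp53+/- libraries had 3692, 3987 and 3503 CPM (3728 ± 244). The highest values were in cells without Trp53, at 5240, 4415 and 4805 CPM in Pole4-/- Trp53-/- (4820 ± 413) and 3026, 6609 and 5732 CPM in Pole4+/+ Trp53-/- (5122 ± 1867). Replicate 1 of Pole4+/+ Trp53-/- stood apart from the other 2 libraries of its genotype and fell within the Trp53+/+ range, so neighbours in this order other than Pole4-/- Trp53+/+ did not separate beyond their spread, except that all 3 Pole4-/- Trp53-/- libraries lay above all libraries of the 4 genotypes with Trp53.

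**Figure D1:**
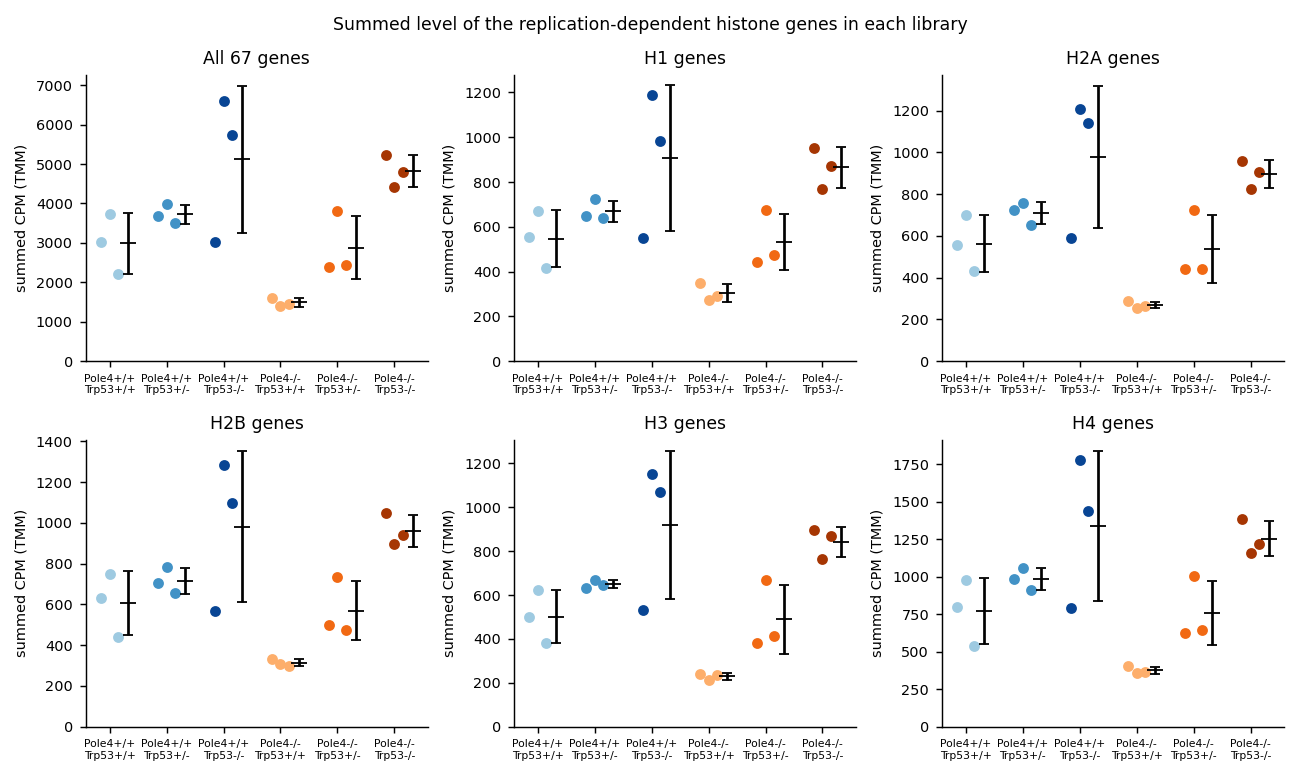
Summed CPM of the 67 histone genes and of each histone family (y axis) in the 6 genotypes (x axis); points are libraries, and the bar beside them is the mean with its SD (n = 3). The 3 Pole4-/- Trp53+/+ libraries (1407 to 1611 CPM for all genes) lie below the other 15 libraries, and 1 Pole4+/+ Trp53-/- library (3026 CPM) lies apart from the other 2.

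The 5 families kept similar proportions, with Pole4-/- Trp53+/+ somewhat apart. Over the 18 libraries H4 genes made up 24.4% to 26.9% of the sum, H2B 18.7% to 21.9%, H2A 17.8% to 19.9%, H1 17.1% to 21.7% and H3 14.8% to 18.7%. The H1 share was 19.6% to 21.7% in Pole4-/- Trp53+/+ and at most 19.5% in the other 15 libraries, and the H3 share averaged 15.4% there against 16.8% to 17.9% in the other genotypes. On a per-length scale, the mean level over all libraries was highest within each family for Hist2h2aa2 (292 CPM per kilobase of exon), Hist1h4h (277), Hist2h2bb (241), Hist2h3b (170) and the linker gene Hist1h1b (134). The range between genes was wide: 30 of the 63 tested genes had a mean above 50 CPM and 3 had a mean below 1. Of the 4 untested genes, Hist1h2aa, Hist1h2aj, Hist1h2al and Hist1h2ba, none had more than 4.1 counts in any library. Gene by gene, 58 of 63 had their lowest genotype mean in Pole4-/- Trp53+/+, and in 45 all 3 libraries of that genotype lay below the other 15, which was so for 9.85% of the 15710 genes tested. The highest genotype mean was in Pole4+/+ Trp53-/- for 45 genes and in Pole4-/- Trp53-/- for 14. In Pole4+/+ Trp53-/- the means rest largely on replicates 2 and 3 (6609 and 5732 CPM summed, against 3026 in replicate 1). For the order of genotype means no share over all genes was counted.

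Loss of Pole4 in cells with both copies of Trp53 went with lower levels of most histone genes. By the edgeR quasi-likelihood test with Benjamini-Hochberg adjustment over all 15710 genes, 32 of 63 histone genes fell and none rose at an adjusted p under 0.05, where 2.7% of all genes fell and 1.29% rose. The median log2 fold change (log2FC) of the 63 genes was -1.14, with quartiles of -1.28 and -0.93, against 0.01 over all genes. All 3 Pole4-/- libraries lay below all 3 Pole4+/+ libraries for 46 histone genes, against 21.7% of all genes, and above them for 1, Hist1h2bc, against 19.4%. The summed level was 2.01-fold lower, and by family 1.80-fold lower for H1, 2.09-fold for H2A, 1.94-fold for H2B, 2.19-fold for H3 and 2.06-fold for H4. Fibroblast markers summed to 12022 to 15562 CPM in Pole4+/+ and 16532 to 20484 CPM in Pole4-/- libraries. For epithelial markers the sums were 2.96 to 6.82 and 2.06 to 2.84 CPM. The sums overlapped for macrophage (4.78 to 52.1 and 10.4 to 23.4), endothelial (2.84 to 4.65 and 2.88 to 5.17), muscle (114 to 153 and 142 to 151) and neuronal markers (66.5 to 86.4 and 77.2 to 97.0). The part of the markers in the result was not tested.

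The fall reached every family: 4 of 6 tested H1 genes, 7 of 17 H2A, 7 of 15 H2B, 7 of 12 H3 and 7 of 13 H4 passed the test. The linker gene Hist1h1b was at 87.2, 104 and 57.3 CPM in Pole4+/+ and 34.6, 29.6 and 28.8 CPM in Pole4-/- cells, with no overlap (log2FC -1.41 ± 0.32, SE, edgeR adjusted p = 0.031). The H2B gene Hist1h2bk was at 77.2, 93.0 and 45.7 CPM and fell to 28.2, 21.4 and 21.5 CPM (log2FC -1.59 ± 0.31, edgeR adjusted p = 0.021). The H3 gene Hist2h3c2 was at 77.3, 99.4 and 45.0 CPM and fell to 31.6, 19.2 and 27.8 CPM (log2FC -1.49 ± 0.32). In each of these genes Pole4+/+ replicate 3 was the lowest library of its group. The H4 gene Hist1h4k, at 30.3, 43.3 and 27.4 CPM, fell to 16.6, 11 and 13.4 CPM (log2FC -1.29 ± 0.24, edgeR adjusted p = 0.020), and the H2A gene Hist2h2aa2, at 131, 158 and 107 CPM, fell to 72.2, 57.8 and 79.1 CPM (log2FC -0.93 ± 0.22). Hist1h2bj (-1.62) and Hist1h2ae (-1.6) had the largest fitted falls among the called genes, and the other called genes named by the rule, Hist1h1d, Hist1h1e, Hist1h2ab, Hist1h2bb, Hist1h2bf, Hist1h2bg, Hist1h3b, Hist1h3e, Hist1h4d, Hist1h4m, Hist2h2ac, Hist2h2bb and Hist2h3b, lay between -1.35 and -0.94. Hist1h2ak (-0.97, edgeR adjusted p = 0.056) and Hist1h4h (-0.83, 0.088) did not pass, although their libraries did not overlap.

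These calls sat close to the threshold. With the Xist level as a covariate edgeR called 0 of the 63 genes (46 at an unadjusted p under 0.05, median log2FC -1.01), and leaving out 1 library gave 4, 0 and 0 calls without Pole4-/- replicates 1, 2 and 3, and 0, 0 and 45 without Pole4+/+ replicates 1, 2 and 3, with medians between -0.93 and -1.32. Over all genes the same fits called 3 of 15710 with Xist, then 140, 18 and 12, and 26, 8 and 799 of 16019 to 16214. With all libraries and no covariate 26.1% of all genes had an unadjusted p under 0.05 by edgeR, and that share is not given for the Xist fit. Xist was at 725, 451 and 676 CPM in the Pole4+/+ libraries and at 880, 1.09 and 0.134 CPM in the Pole4-/- libraries, and the ribosomal RNA share was 5.81% to 11.2% and 7.11% to 42.5%; with that share as a covariate 47 histone genes were called, beside 2173 of all 15446 genes in that fit, where the fit that also left out the ribosomal RNA genes but had no covariate called 771.

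Deletion of Trp53 in Pole4-/- cells went with higher levels of nearly all histone genes. Of the 63 genes, 55 rose and 1 fell by the edgeR test, where 21.8% of all genes rose and 20.8% fell. The median log2FC was 1.81, with quartiles of 1.6 and 2, against -0.02 over all genes. The groups did not overlap for 56 genes that were above and 1 that was below, against 28.5% of all genes in each direction. The summed level was 3.23-fold higher, and 2.84-fold for H1, 3.33-fold for H2A, 3.07-fold for H2B, 3.68-fold for H3 and 3.35-fold for H4. This comparison shares the Pole4-/- Trp53+/+ libraries with the preceding one, so a low value in those 3 libraries enters both.

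All 13 tested H4 genes, 5 of 6 H1, 15 of 17 H2A, 11 of 15 H2B and 11 of 12 H3 genes rose. The H3 gene Hist2h3c2 had the largest fitted rise, from 31.6, 19.2 and 27.8 CPM to 155, 136 and 146 CPM (log2FC 2.47 ± 0.33, edgeR adjusted p = 6e-05). Hist1h2bk rose from 28.2, 21.4 and 21.5 CPM to 135, 124 and 104 CPM (2.34 ± 0.32), and Hist1h1b from 34.6, 29.6 and 28.8 CPM to 161, 134 and 157 CPM (2.28 ± 0.33). In all these genes the lowest Pole4-/- Trp53-/- library also lay above the highest Pole4+/+ Trp53+/+ library. Hist1h2bf rose from 9.74, 9.93 and 11.6 CPM to 44.2, 42.2 and 49.7 CPM (2.13 ± 0.25, edgeR adjusted p = 2e-05) and Hist1h4k from 16.6, 11 and 13.4 CPM to 64.9, 51.5 and 56.8 CPM (2.07 ± 0.25). Hist1h2ao, at 18, 24.4 and 53.7 CPM, rose to 144, 109 and 202 CPM with a wide error (2.28 ± 0.65, edgeR adjusted p = 0.012). Leaving out any 1 of the 6 libraries left between 53 and 55 calls, and with Xist as a covariate there were 56. The 2 groups differed in cell type markers too. The summed fibroblast markers were at 16532 to 20484 CPM in Pole4-/- Trp53+/+ and 9931 to 12456 CPM in Pole4-/- Trp53-/- libraries, with 4 of 10 tested genes lower and 1 higher by edgeR, and muscle markers at 142 to 151 and 53.5 to 68.5 CPM, with 2 of 6 lower. Neuronal markers were at 77.2 to 97.0 and 124 to 146 CPM, with 3 of 5 higher, and epithelial markers at 2.06 to 2.84 and 4.50 to 20.3 CPM, with both tested genes higher, while no macrophage (8) or endothelial (3) marker was called. The part of these in the result was not tested.

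**Figure D2:**
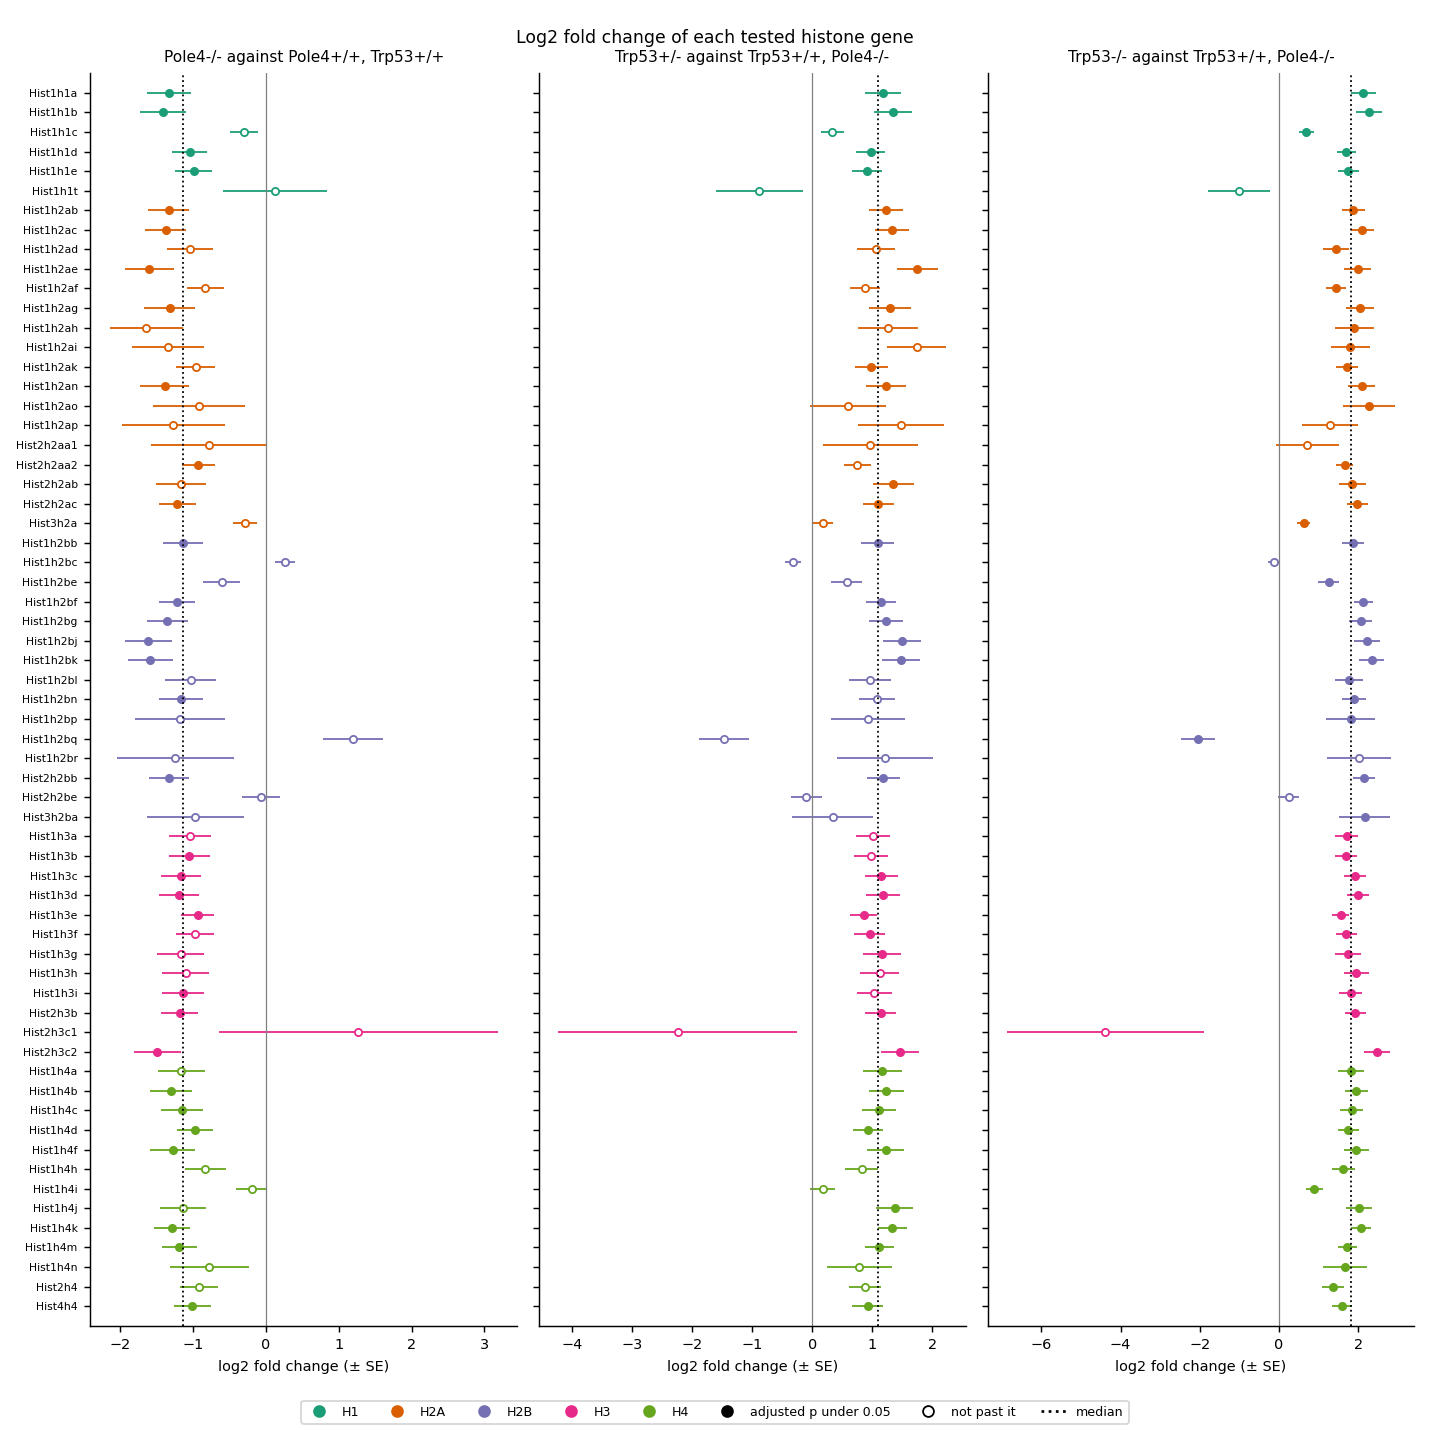
Log2 fold change with its SE (x axis) of each of the 63 tested histone genes (y axis), coloured by family, for 3 comparisons that share the Pole4-/- Trp53+/+ libraries; filled points passed an adjusted p of 0.05 by edgeR and the dotted line is the median. Most genes lie near the medians of -1.14, 1.09 and 1.81, and Hist1h2bc, Hist2h2be, Hist1h2bq, Hist2h3c1 and Hist1h1t lie apart from them.

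Loss of 1 copy of Trp53 in Pole4-/- cells gave a rise of intermediate size. In Pole4-/- Trp53+/- against Pole4-/- Trp53+/+ cells 34 histone genes rose and none fell, where 2.96% of all genes rose. The median log2FC was 1.09 against -0.01 over all genes, and the summed level was 1.93-fold higher. The groups did not overlap for 52 genes that were above, against 21.4% of all genes, and for 2 that were below, Hist1h2bc and Hist1h2bq, against 18.9%. Hist1h4k rose from 16.6, 11 and 13.4 CPM to 26.6, 45.3 and 32.5 CPM (log2FC 1.33 ± 0.24, edgeR adjusted p = 0.013), and Hist1h2bk to 59.4, 83.8 and 57.1 CPM (1.48 ± 0.31, 0.023). For Hist1h2bj the log2FC was 1.5 ± 0.32 and for Hist1h2ae 1.75 ± 0.34, whereas Hist2h2aa2 (0.75, edgeR adjusted p = 0.058) and Hist1h3b (0.98, 0.054) did not pass. Replicate 2 of Pole4-/- Trp53+/- was the highest library of its genotype in these genes. Without it edgeR called 0 of the 63 genes (47 at an unadjusted p under 0.05), without Pole4-/- Trp53+/+ replicates 1, 2 and 3 it called 6, 0 and 0, and with Xist as a covariate 2 (48 at an unadjusted p under 0.05, median 1.02). Over all genes these fits called 17, then 241, 41 and 33, and 101, against 805 with all libraries and no covariate. With all libraries and no covariate 26% of all genes had an unadjusted p under 0.05 by edgeR, and that share is not given for these refits.

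In Pole4+/+ cells the same genes were shifted upward without Trp53 but with wider spread. The median log2FC of Pole4+/+ Trp53-/- against Pole4+/+ Trp53+/+ was 0.77, against 0.03 over all genes, and 5 of 63 genes rose by edgeR, where 2.23% of all genes rose. Those 5 were Hist1h4k (1.08 ± 0.23, edgeR adjusted p = 0.015), Hist2h3b (1.06 ± 0.25, 0.025), Hist1h2ak (1.08 ± 0.26, 0.027), Hist1h4m (0.96 ± 0.23, 0.030) and Hist1h2bf (0.86 ± 0.23, 0.048). Hist1h4k was at 30.3, 43.3 and 27.4 CPM in Trp53+/+ and at 48.0, 81.2 and 83.9 CPM in Trp53-/- libraries, without overlap, which was so for 7 histone genes in the upward direction, against 8.24% of all genes. For most others replicate 1 of Pole4+/+ Trp53-/- lay within the Trp53+/+ range: Hist1h1b was at 73.4, 209.5 and 174 CPM against 87.2, 104 and 57.3. The number of calls rested on single libraries and on the tool: DESeq2 called 30 genes, edgeR called 52 without Pole4+/+ Trp53-/- replicate 1 and 0 without replicate 2 or 3, and 0, 4 and 0 without Trp53+/+ replicates 1, 2 and 3. Calls over all genes moved as well, from 723 to 1305 with DESeq2, to 2700, 478 and 649 without the Trp53-/- libraries in turn, and to 386, 406 and 325 without the Trp53+/+ libraries. Among cell type markers edgeR called 2 of 6 muscle genes lower and 1 of 10 fibroblast genes higher here, and neuronal markers summed to 66.5 to 86.4 CPM in Trp53+/+ and 102 to 138 CPM in Trp53-/- libraries with no call (5 tested). Their part in the result was not tested.

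Losing 1 copy of Trp53 in Pole4+/+ cells gave no call. Xist was over 100 CPM in 3 of 3 Trp53+/+ libraries and in 0 of 3 Trp53+/- libraries here. In this comparison the Trp53 genotype and the Xist state therefore cannot be told apart. EdgeR called 0 of the 63 genes (4 at an unadjusted p under 0.05, against 10.2% of all genes) and DESeq2 called 0, where edgeR called 0.904% of all genes. The median log2FC was 0.33, with 54 of 63 above 0, and the summed level was 1.25-fold higher, with overlapping groups. For 14 genes all Trp53+/- libraries lay above all Trp53+/+ libraries, against 10.2% of all genes, and for 1 below, against 10.1%. Hist1h4k was at 53.1, 54.7 and 58.4 CPM against 30.3, 43.3 and 27.4, so its libraries did not overlap (0.72 ± 0.23, edgeR adjusted p = 0.20).

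Whether the effect of Trp53 loss differed between Pole4-/- and Pole4+/+ cells was tested as an interaction. No histone gene passed it by edgeR (0 of 63, lowest adjusted p = 0.0589), 38 had an unadjusted p under 0.05, of which 37 were larger in Pole4-/- cells, and DESeq2 called 20. Over all genes edgeR called 0.331% and 28.3% had an unadjusted p under 0.05. The median interaction log2FC was 0.99 against -0.02 over all genes. Hist1h2bk (1.61 ± 0.43) and Hist1h2bf (1.27 ± 0.34) both had an edgeR adjusted p of 0.059. Without Pole4+/+ Trp53-/- replicates 1, 2 and 3 edgeR called 1, 25 and 20 genes, and without Pole4+/+ Trp53+/+ replicate 3 it called 5. With the replicate number as a block it also called 5. Over all genes, where 52 were called, DESeq2 called 1775, the block gave 548, and these 4 omissions gave 170, 1973, 3242 and 408.

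Pole4 status made no difference that passed the test once Trp53 was reduced. In Trp53+/- cells edgeR and DESeq2 called 0 of the 63 genes (6 at an unadjusted p under 0.05 by edgeR, where 5.51% of all genes had one), with a median log2FC of -0.38 and a summed level of 2883 ± 804 CPM against 3728 ± 244. In Trp53-/- cells both tools again called 0 (1 at an unadjusted p under 0.05, against 10.4% of all genes), with a median of -0.12 and summed levels of 4820 ± 413 and 5122 ± 1867 CPM. For Hist1h1b the difference in Trp53-/- cells was -0.01 ± 0.31 and for Hist1h4k -0.30 ± 0.23. Over all genes edgeR called 1 of 15710 in each of these comparisons (0.00637%).

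A few genes did not follow the group, and the clearest sat next to genes that did. They were picked out after their values were seen. In the 67-gene set 12 H2A genes stood head to head with an H2B gene, with starts 176 to 306 bases apart, so that both partners are transcribed outward from 1 shared promoter region. Hist1h2ac and Hist1h2bc are such a pair, 251 bases apart on chromosome 13, and Hist2h2ac and Hist2h2be another, 239 bases apart on chromosome 3. Both regions are printed from the RefSeq promoter windows of the H2A partners (GRCm38.p6), because they contain the whole sequence between the divergent starts. Capitals mark the TATA box TATAAA, the CCAAT box (ATTGG on the other strand) and the octamer ATTTGCAT (ATGCAAAT on the other strand), the element by which OCT1 activates H2B genes.
Hist1h2ac: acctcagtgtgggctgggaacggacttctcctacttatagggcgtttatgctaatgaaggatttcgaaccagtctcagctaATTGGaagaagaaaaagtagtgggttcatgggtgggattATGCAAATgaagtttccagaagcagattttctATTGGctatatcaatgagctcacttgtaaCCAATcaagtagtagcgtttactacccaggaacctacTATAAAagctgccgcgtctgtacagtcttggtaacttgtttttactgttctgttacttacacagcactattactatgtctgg
Hist2h2ac: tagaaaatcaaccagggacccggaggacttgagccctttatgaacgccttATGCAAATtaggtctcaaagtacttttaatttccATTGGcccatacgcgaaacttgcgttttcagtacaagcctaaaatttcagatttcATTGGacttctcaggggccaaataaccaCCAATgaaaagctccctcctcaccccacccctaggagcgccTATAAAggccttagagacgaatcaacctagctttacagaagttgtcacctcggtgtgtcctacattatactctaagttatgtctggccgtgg
The windows are chr13:23683910-23684209 and chr3:96220831-96221130, both on the minus strand. Each holds 1 TATAAA, 3 CCAAT and 1 octamer. Of the 60 histone promoters matched by symbol in that table, 58.3% held TATAAA on either strand, 85.0% CCAAT, 20% the octamer and 30.0% TTTNNCGC, a core of the E2F site, against 13.6%, 37.4%, 1.74% and 5.17% of all 32851 promoters of the same length. CCAAT was in every matched H1, H2A, H2B and H3 promoter and in 25% of the H4 promoters, and the octamer was in H2A and H2B windows only.

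Across these shared regions the H2A partner moved with the group and the H2B partner did not. Hist1h2ac was at 34.3, 42.3 and 29.8 CPM in Pole4+/+ Trp53+/+, 13.3, 14.5 and 13.1 in Pole4-/- Trp53+/+ and 67, 53.7 and 54.2 in Pole4-/- Trp53-/- libraries (log2FC -1.38 ± 0.29 on Pole4 loss and 2.09 ± 0.29 on Trp53 loss in Pole4-/- cells, both past the edgeR test). Hist1h2bc in the same libraries was at 63.6, 73.7 and 64.0, then 80.0, 77.4 and 84.2, then 77.5, 73.5 and 69.6 CPM (0.26 ± 0.14, edgeR adjusted p = 0.24, and -0.13 ± 0.14, 0.49). Its genotype mean was highest in Pole4-/- Trp53+/+, where nearly all other histone genes were lowest. The log2 ratio of Hist1h2ac to Hist1h2bc within a library, with 0.1 CPM added to each, was -2.67 to -2.41 in Pole4-/- Trp53+/+, -1.10 to -0.80 in Pole4+/+ Trp53+/+ and -0.45 to -0.21 in Pole4-/- Trp53-/- libraries. As a result Hist1h2bc made up 24.1% to 28.3% of all H2B counts in Pole4-/- Trp53+/+ cells, 9.82% to 14.6% in Pole4+/+ Trp53+/+ and 7.39% to 8.21% in Pole4-/- Trp53-/- cells.

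The pair on chromosome 3 showed the same pattern at a lower level of the H2B partner. Hist2h2ac was at 36.4, 42.2 and 28.2 CPM in Pole4+/+ Trp53+/+, 15.1, 15.9 and 14.9 in Pole4-/- Trp53+/+ and 63.3, 56.2 and 61.5 in Pole4-/- Trp53-/- libraries (-1.22 ± 0.25 and 1.98 ± 0.26, both past the edgeR test). Hist2h2be was at 2.09, 1.76 and 1.36, then 1.61, 2 and 1.34, then 1.86, 1.57 and 2.52 CPM (-0.07 ± 0.26 and 0.25 ± 0.26, edgeR adjusted p = 0.89 and 0.48). The within-library ratio shifted by 1.73 on the log2 scale with Trp53 loss in Pole4-/- cells, and by 2.21 for the chromosome 13 pair. A further pair, Hist1h2ao and Hist1h2bq, shifted by 4.30, while in the other 8 pairs with both genes tested the shift was between -0.99 and 0.15. An exact 2-sided permutation test of the ratio gave p = 0.1 for these 3 pairs and for Hist1h2ad with Hist1h2bf, before any adjustment over the 11 pairs, and 0.5 or more for the other 7. With 3 libraries against 3 it cannot go below 0.1, so no pair could pass.

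**Figure D3:**
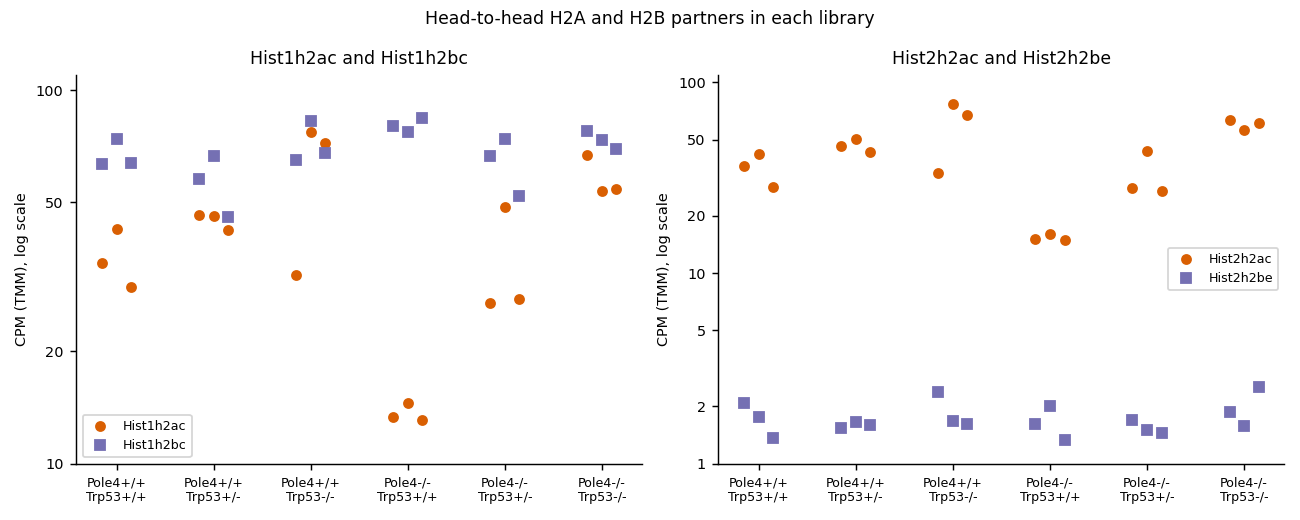
CPM on a log scale (y axis) of Hist1h2ac with Hist1h2bc and of Hist2h2ac with Hist2h2be in the 6 genotypes (x axis), 1 point for each library. The H2A genes run from 13.1 to 77.2 CPM and from 14.9 to 76.6 CPM and are lowest in the 3 Pole4-/- Trp53+/+ libraries, whereas Hist1h2bc stays between 45.6 and 84.2 CPM and Hist2h2be between 1.34 and 2.52 CPM.

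In the annotation these H2B genes also differed from their partners in the stem-loop, since no match was found in Hist1h2bc or Hist2h2be. They are annotated with 742 and 2192 bases after the stop codon and contain the poly(A) signal AATAAA there. Only transcript sequence was searched, so a match removed by splicing would be missed in Hist1h2bc, whose 1 transcript has 2 exon blocks. The partner Hist1h2ac, with 2058 bases after the stop codon, holds AATAAA as well, whereas Hist2h2ac, with 94 bases, does not. Of the 63 tested genes, 6 had no match and more than 100 bases after the stop codon: Hist1h2bc, Hist2h2be, Hist1h2bq, Hist1h2br, Hist1h4a and Hist1h4j. The limit from splicing holds for Hist1h2bq and Hist1h2br too, each with 6 exon blocks in 3 transcripts. The median log2FC of the 6 genes for Trp53 loss in Pole4-/- cells was 1.03, with 2 called higher and 1 lower. The 20 genes with a stem-loop and at most 100 bases after it had a median of 1.84 with 18 called higher, the 20 with a stem-loop and a longer annotated end 1.70 with 18 called higher, and the 17 with no match in a model that ends within 100 bases of the stop codon 1.90 with all 17 called higher. An annotated long end alone did not mark the exceptions: Hist1h2ac has 2010 bases annotated after its stem-loop, and Hist1h4a (1.81 ± 0.33) and Hist1h4j (2.02 ± 0.32) rose with the group. The assignment of reads was not the same for these genes either, since 25.4% of the windows of Hist1h2bc, 0% of Hist2h2be and 94.8% of Hist1h2bq were shared with other transcripts.

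Hist1h2bq was the only called histone gene that went the other way. It was at 8.24, 4.76 and 10.8 CPM in Pole4-/- Trp53+/+ and 1.45, 2.20 and 2.06 CPM in Pole4-/- Trp53-/- libraries (log2FC -2.06 ± 0.43, edgeR adjusted p = 0.0015), and at 2.48, 2.59 and 5.34 CPM in Pole4+/+ Trp53+/+ cells. With 94.8% of its windows shared, its value depends on how reads were divided among copies. Hist2h3c1, whose windows were all shared, was at 0 to 6.69 CPM with 9 of 18 libraries at 0 and passed no test. Hist1h1t, the testis linker histone, was at 0.0454 to 0.543 CPM and passed none either. Smaller rises on Trp53 loss in Pole4-/- cells were seen in Hist1h1c, Hist3h2a and Hist1h4i. Hist1h1c, the linker gene with the highest mean CPM over all 18 libraries, went from 145, 112 and 115 CPM to 231, 182 and 187 CPM (0.69 ± 0.19, edgeR adjusted p = 0.0094). In the Pole4-/- Trp53-/- libraries Hist1h1e (244, 199 and 231 CPM) and Hist1h1d (240, 191 and 214) were higher than Hist1h1c. Hist3h2a on chromosome 11 rose by 0.62 ± 0.17 (edgeR adjusted p = 0.0072) and Hist1h4i by 0.89 ± 0.21 (0.0033). On Pole4 loss the log2FCs of Hist1h1c, Hist3h2a and Hist1h4i were -0.30, -0.29 and -0.20, and none passed the test. Hist1h1c thereby made up 39.7% to 41.3% of H1 counts in Pole4-/- Trp53+/+, 26.8% to 29.7% in Pole4+/+ Trp53+/+ and 21.4% to 24.2% in Pole4-/- Trp53-/- cells. In all, 7 of the 63 genes were called in none of the comparisons: Hist1h1t, Hist1h2ap, Hist1h2bc, Hist1h2br, Hist2h2aa1, Hist2h2be and Hist2h3c1.

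Other gene groups around histone supply were compared in the same fit, beginning with polyadenylated S phase transcripts. All 27 of these rose with Trp53 loss in Pole4-/- cells (median log2FC 1.6, against 21.8% of all genes that rose), 19 fell with Pole4 loss in Trp53+/+ cells (-0.87, against 2.7%) and 13 rose in Pole4-/- Trp53+/- cells (0.73, against 2.96%). With Trp53 loss in Pole4+/+ cells 3 rose (0.59, against 2.23%). Mcm2, a subunit of the replicative helicase, was at 59.1, 68.2 and 46.5 CPM in Pole4+/+ Trp53+/+, 28.7, 29.5 and 29.7 in Pole4-/- Trp53+/+ and 83.6, 78.6 and 95.3 in Pole4-/- Trp53-/- libraries. Pcna, the sliding clamp, rose by 1.43 ± 0.22 with Trp53 loss in Pole4-/- cells, Rrm2, which makes deoxyribonucleotides, by 1.62 ± 0.36 and Ccne1, the G1/S cyclin E1, by 0.88 ± 0.23, all past the edgeR test. The ratio of the summed histone level to the summed level of these 27 transcripts was 2.14 to 2.55 in Pole4-/- Trp53+/+, 2.36 to 2.87 in Pole4+/+ Trp53+/+, 2.24 to 2.91 in Pole4-/- Trp53-/- and 2.68 to 3.56 in Pole4+/+ Trp53-/- libraries, so the first 3 of these ranges overlapped where the levels themselves did not. It was 2.33 to 3.02 in Pole4-/- Trp53+/- and 2.90 to 3.17 in Pole4+/+ Trp53+/- libraries, and the latter range lay above those of both Trp53+/+ genotypes. The library of Pole4+/+ Trp53-/- that was low in histone mRNA was low here as well, at 1039 CPM against 1854 and 2139, and Pole4-/- Trp53+/- replicate 2 was high, at 1261 CPM against 1028 and 905. Cdkn1a, the p53 target that inhibits cyclin-dependent kinases, was at 342 to 363 CPM in Pole4-/- Trp53+/+, 232 to 251 in Pole4+/+ Trp53+/+ and 5.17 to 8.80 in Pole4-/- Trp53-/- libraries.

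Histone genes outside the clusters, listed as replication-independent, had smaller median changes; the difference from the clustered genes was not tested. Of 11, 8 rose and 1 fell with Trp53 loss in Pole4-/- cells (median 0.60), where 21.8% of all genes rose and 20.8% fell, and 3 fell with Pole4 loss in Trp53+/+ cells (-0.36), where 2.7% fell. The 3 were H2afz (-0.89), H2afx (-0.78), which carries the stem-loop match, and the centromeric histone Cenpa (-0.74), whose mRNA is known to vary over the cell cycle. These 3 genes rose by 1.57, 1.19 and 1.53 with Trp53 loss in Pole4-/- cells, in a comparison that shares the Pole4-/- Trp53+/+ libraries. H3f3b, 1 of the genes for H3.3, rose by 0.37 ± 0.10 (edgeR adjusted p = 0.0090), whereas its sister gene H3f3a (0.08 ± 0.09, 0.50) and the linker H1f0 (0.32 ± 0.15, 0.10) did not pass, and H2afj fell by 1.00 on the log2 scale. The ratio of replication-dependent to these histone transcripts was 1.98 to 2.07 in Pole4-/- Trp53+/+, 2.72 to 4.09 in Pole4+/+ Trp53+/+ and 4.33 to 4.78 in Pole4-/- Trp53-/- libraries, with no overlap among these 3 genotypes. The other genotypes, at 2.87 to 3.99 in Pole4-/- Trp53+/-, 3.67 to 4.02 in Pole4+/+ Trp53+/- and 3.02 to 5.34 in Pole4+/+ Trp53-/-, each overlapped Pole4+/+ Trp53+/+ and lay above Pole4-/- Trp53+/+.

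Of 24 factors that transcribe, process or degrade histone mRNA, 19 rose with Trp53 loss in Pole4-/- cells (median 0.48), where 21.8% of all genes rose. With Pole4 loss in Trp53+/+ cells 2 fell (-0.24), where 2.7% of all genes fell. The log2FC was below 0 for 22 of the 24 there, 14 were lower at an unadjusted p under 0.05 (2318 of all 15710 genes), and for 14 the Pole4-/- libraries lay wholly below, against 21.7% of all genes. Slbp is also among the 27 S phase transcripts. Slbp, the stem-loop binding protein, was at 28.5, 25 and 26.8 CPM in Pole4-/- Trp53+/+ and 49.0, 49.1 and 60.1 in Pole4-/- Trp53-/- libraries (0.98 ± 0.13, edgeR adjusted p = 4.2e-05). Lsm11, a U7-specific ring protein, rose by 1.05 ± 0.18, Casp8ap2, a component of histone locus bodies, by 1.03 ± 0.13, Eri1, an exonuclease of the stem-loop, by 1.06 ± 0.14 and Npat, the transcriptional coactivator, by 0.44 ± 0.09. Zfp473, a zinc finger protein of the U7 machinery, was at 0.323 to 1.09 CPM over all libraries and passed no test. With Pole4 loss Slbp changed by -0.33 ± 0.13 (edgeR adjusted p = 0.13) and Npat by -0.09 ± 0.09 (0.51), and the 2 called factors were Cpsf2 (-0.53) and Lsm1 (-0.47).

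Because histone mRNAs usually lack a poly(A) tail, other RNAs without one were examined as well. Of 20 such RNAs 19 were tested, and edgeR called 0 of them in every comparison; for Trp53 loss in Pole4-/- cells 3 were lower at an unadjusted p under 0.05, DESeq2 called 2 lower and the median log2FC was 0.17. On Pole4 loss in Trp53+/+ cells the median was -0.16 and DESeq2 called 0. The labels name poly(A) RNA as the molecule, and the cDNA kit they name, Ovation RNA-Seq System V2, primes along the transcript as well as at the tail, so how the non-polyadenylated RNAs entered the libraries is not known here.

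**Figure D4:**
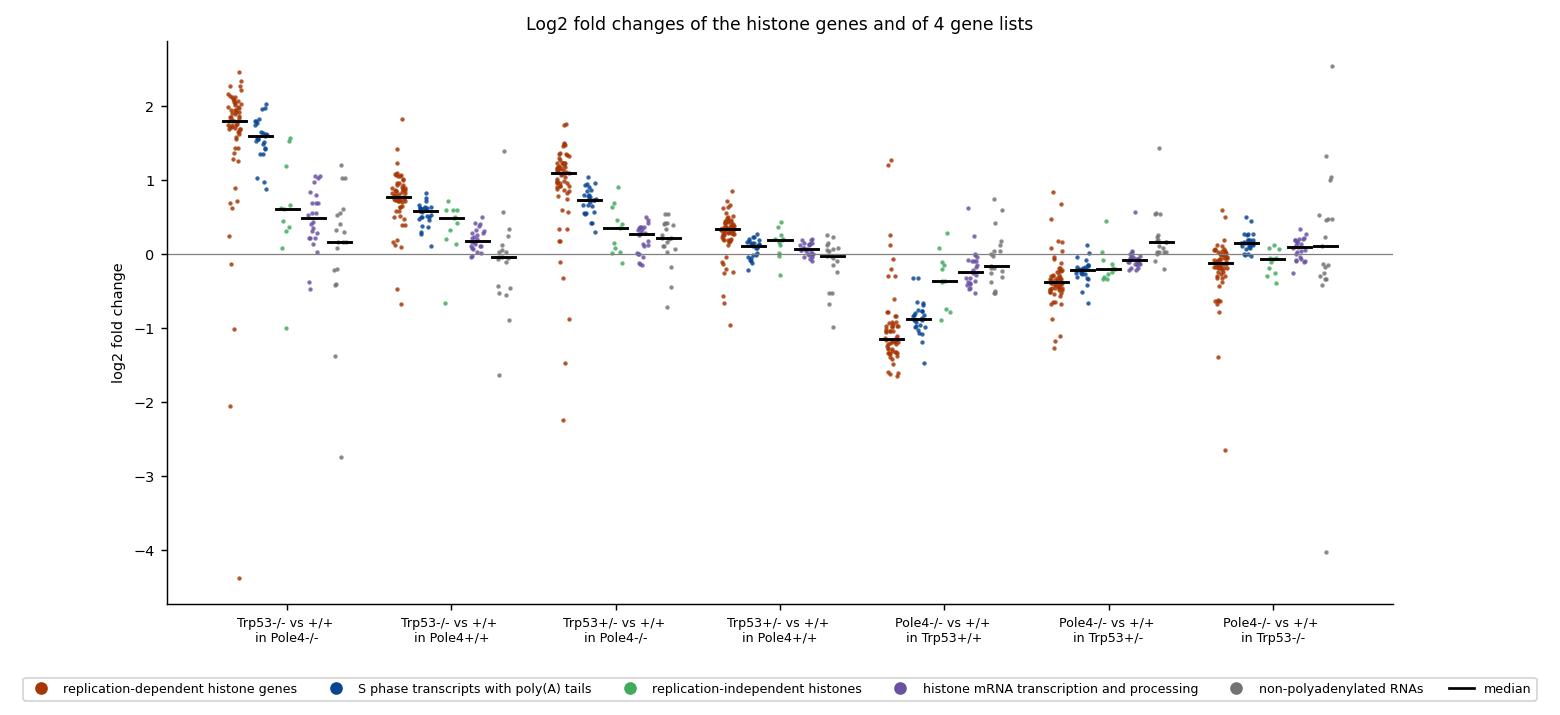
Log2 fold change (y axis) of each tested gene in 7 comparisons (x axis) for the histone genes and 4 other gene lists; each point is a gene and the bar is the median. The histone medians run from -1.14 to 1.81, those of the S phase transcripts from -0.87 to 1.6 and those of the non-polyadenylated RNAs from -0.16 to 0.21; comparisons share libraries.

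Among the 15647 tested genes that the rule did not take, likeness to the summed histone level over the 18 libraries was ranked by Pearson correlation of log2 CPM, as a description. The closest were ENSMUSG00000096807 (r = 0.992), Fkbp4, a cochaperone of HSP90 (0.988), Parp1, which senses DNA breaks (0.982), Mcm2 (0.981) and Pold2, a subunit of DNA polymerase delta (0.980). ENSMUSG00000096807 has no symbol in the tables used here, so the rule, which uses names only, could not judge whether it belongs to the group. The 18 points share their libraries, scaling and genotypes. Among the histone genes themselves the lowest correlations with the sum were those of Hist1h2bq (-0.90), Hist2h3c1 (-0.39), Hist1h1t (-0.13), Hist1h2bc (-0.07) and Hist2h2be (0.21).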

How the data were processed

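RNA was measured in 18 libraries of MEFs, 3 for each of 6 genotypes, grouped by the labels' titles. Per the study's methods, the authors trimmed reads with Trim Galore 0.4.2, aligned them with STAR 2.5.2 to GRCm38 (Ensembl release 89) and deposited expected counts per gene from RSEM 1.3.0. These were rounded and tested with edgeR 4.0.16 (R 4.3.3): TMM scaling, filterByExpr, a robust quasi-likelihood fit over all 18 libraries, and Benjamini-Hochberg adjustment over 15710 genes. DESeq2 1.42.0 was an alternative. With 3 libraries a genotype, tests on simulated counts for Trp53 loss in Pole4-/- cells (15168 genes) recovered 59.6% of genes changed by a log2FC of 1 and 78.9% of those changed by 2, with 2.90% false calls. Library depths of 9535971 to 35319918 counts put 10845 to 170333 counts on the histone genes, and intervals cover the spread between libraries only.

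The members and lists were chosen with earlier results of these data known. Named genes were the 3 with the highest mean CPM and the 1 with the highest CPM per kilobase in each family; in each comparison, the 5 called genes with the lowest p and the 3 with the highest and lowest log2FC, or all where 8 or fewer were called; and preset genes of the other lists. Alternatives changed the scaling, filter, tool, libraries or covariates. Of 51912 rows, 51633 matched a symbol, and 60 histone genes a RefSeq promoter. Labels and methods name different RNA extraction kits. The authors' comparisons were not used.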

Additional observations from a re-analysis of the deposited data

How the results depend on the processing

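The 56 calls for Trp53 loss in Pole4-/- cells stayed between 53 and 57 under every alternative run, and the 0 calls for losing 1 Trp53 copy in Pole4+/+ cells and for Pole4 loss with Trp53 reduced or absent stayed at 0, in tests that may be too small to call them. For Trp53 loss in Pole4+/+ cells the 5 calls became 8 with library totals, 1 without a filter and 8 with a replicate block. They became 16 with the ribosomal RNA share as a covariate, 0 with only the libraries compared and 30 with DESeq2. Over all genes 723 became 192, 533, 795, 736, 90 and 1305 in that order. The covariate fit also left out the ribosomal RNA genes, and that fit without the covariate called 781 of 15446 genes. Leaving out 1 library gave 0 to 52 histone calls. For Trp53+/- in Pole4-/- cells the 34 calls became 21 without a filter and 2 with the Xist covariate (all genes 805, then 898 and 101), and 0 to 35 on leaving out 1 library. For Pole4 loss in Trp53+/+ cells the 32 calls became 0 with the Xist covariate (all genes 626, then 3), and 0 to 45 on leaving out 1 library. The interaction gave 5 calls with the replicate block, 20 with DESeq2 (all genes 52, then 548 and 1775) and 0 to 25 on leaving out 1 library. The cause was not tested. Without ribosomal RNA genes in the scaling the mean summed level of Pole4+/+ Trp53+/- cells was 4394 CPM and that of Pole4-/- cells 1755 with intact and 5607 without Trp53; with library totals the latter pair was 1307 and 4122. On leaving out 1 library the mean of Pole4+/+ cells ran from 2618 to 3381 with Trp53+/+, from 3598 to 3840 with Trp53+/- and from 4379 to 6170 with Trp53-/-, and that of Pole4-/- cells from 1429 to 1531, from 2419 to 3128 and from 4610 to 5023. Called named genes were refitted with DESeq2, library totals, scaling without ribosomal RNA genes, the block, the ribosomal RNA covariate and without each library (not without the filter, with upper-quartile scaling, with only the libraries compared or with Xist): of these values none changed direction, 575 kept their side of the threshold and 195 lost it. Library totals moved the median of all genes to 0.29 (Trp53+/- in Pole4-/-), -0.28 (Pole4 loss in Trp53+/+), -0.44 (Pole4 loss in Trp53-/-), 0.12 (Trp53 loss in Pole4+/+) and -0.15 (interaction), against which the histone changes there are to be read.

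The replicate numbers in the labels were not taken as pairs in the main fit, although libraries with the same number deviated together more often than others. Deviations from the genotype means correlated above 0.1 in 22 of 45 same-number pairs (median 0.098, range -0.259 to 0.586). They did so in 16 of 90 pairs with different numbers (median -0.060). The labels do not say what the numbers stand for. With the number as a block the calls were 57 and 8 for Trp53 loss (Pole4-/- cells first), 34 for Trp53+/- in Pole4-/- cells, 36 for Pole4 loss with Trp53 intact and 5 for the interaction; over all genes the same fit called 6893, 795, 983, 896 and 548, against 6699, 723, 805, 626 and 52 without the block.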
